A study of Mus musculus with 18 samples.

Results

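The collagen chains are the genes of the extracellular matrix family named *Col*, a type number, the letter a and a chain number. All rows whose symbol has that form were taken from both expression tables, whatever their values. There were 44 such genes, of 20310 genes in the table of differentiation stages and of 20495 genes in the table of fibroblast libraries, and both tables held the same 44. They comprised 11 fibrillar chains, the 6 chains of the basement membrane collagen type IV and 27 chains of other types, among them 6 of type VI, 9 FACIT chains (collagens that sit on the surface of fibrils), 2 multiplexins, 4 transmembrane and 3 short-chain collagens.

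RNA-seq was performed on 18 samples of mouse cells of strain 129. Of these, 10 came from an ESC line with GFP at *Brachyury*, grown on feeder fibroblasts and differentiated in vitro: undifferentiated ESC, mesoderm (MES, Bry:GFP+ FLK1-), hemangioblast (HB, Bry:GFP+ FLK1+), hematopoietic progenitors (HP, CD41+) and macrophages (MAC, CD11b+), 2 replicates each. The other 8 were single libraries of mouse embryonic fibroblasts, depleted of cells with blood and endothelial surface markers and cultured in hematopoietic medium with cytokines. They were untreated (uFIB), or carried *Scl* (*Tal1*) and *Lmo2* (SL), *Scl*, *Fli1*, *Gata2* and *Lmo2* (SFGL) or the last 3 of these without *Scl* (FGL), with 1 library of every kind from day 12 and 1 from day 21. *Scl* came from a doxycycline-inducible transgene in the fibroblasts (iTal1-2A-GFP) and the other factors from lentiviruses; uFIB were wild-type or iTal1-2A-GFP cells.

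All values are FPKM, which are scaled to the length of the transcript and to the depth of the library, so that levels of different chains can be compared within a column. The stage table gives 1 value per stage with the replicates already combined, and no difference between stages could be tested. The libraries labelled FGL did not follow their label in full: *Tal1* was at 7.04 FPKM in FGL at day 12 against 0.0414 FPKM in uFIB, and *Fli1* was at 3.35 FPKM in FGL at day 21 against 3.02 FPKM in uFIB. In SL, which is labelled with *Scl* and *Lmo2* alone, *Fli1* was at 46.7 and 34.4 FPKM (day 12 and day 21) and *Gata2* at 68.8 and 62.6, against 41.2 and 27.8 and 110.0 and 132 in SFGL. Estimated sequencing depth of the fibroblast libraries ranged from 0.587 to 1.56 times that of uFIB at day 12, with SL, SFGL and FGL at day 21 the shallowest at 0.607, 0.775 and 0.587. In bulk samples such as these, fewer cells of a type and less RNA per cell cannot be told apart.

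A collagen molecule is a triple helix of chains, and chains of one type are mostly made together in defined proportions. Fibrillar types I, III and V build the fibers of connective tissue and are the hallmark product of fibroblasts, whereas type IV forms the sheet-like network of basement membranes under endothelium and epithelium. Blood cells are not major producers of fibrillar collagen. The type IV chains are encoded as head-to-head pairs, in which both genes start from a shared promoter region and are read in opposite directions.

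In the deposited loci (mm10, GRCm38), *Col4a1* lies on the reverse strand of chromosome 8 from 11198423 to 11312826 and *Col4a2* on the forward strand from 11312829 to 11449287, with 2 bases between them. *Col4a3* and *Col4a4* on chromosome 1 are 71 bases apart and *Col4a5* and *Col4a6* on chromosome X are 1342 bases apart. Of the fibrillar chains, *Col3a1* (chromosome 1, 45311538 to 45349706) and *Col5a2* (45374331 to 45503282) are neighbors on opposite strands, 24.6 kb apart. *Col1a1* (chromosome 11, 94936270 to 94951856) and *Col1a2* (chromosome 6, 4505697 to 4541543), which form type I together, are on different chromosomes.

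The promoters of *Col4a1* and *Col4a2* are shown because this pair carried most of the type IV RNA in both tables. Each runs 5′ to 3′ on the strand of its gene from 250 bases before to 50 bases after the RefSeq start site (GRCm38.p6), *Col4a1* at chr8:11312777-11313076 on the reverse strand and *Col4a2* at chr8:11312555-11312854 on the forward strand. Capitals mark the 78 bases that both windows share, which read as the reverse complement of each other.
Col4a1: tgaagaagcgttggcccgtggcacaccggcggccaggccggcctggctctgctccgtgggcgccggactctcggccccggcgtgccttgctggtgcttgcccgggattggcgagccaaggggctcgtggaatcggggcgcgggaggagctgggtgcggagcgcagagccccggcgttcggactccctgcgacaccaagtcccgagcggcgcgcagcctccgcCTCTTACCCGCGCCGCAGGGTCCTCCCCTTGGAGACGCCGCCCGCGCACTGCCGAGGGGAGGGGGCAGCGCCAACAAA
Col4a2: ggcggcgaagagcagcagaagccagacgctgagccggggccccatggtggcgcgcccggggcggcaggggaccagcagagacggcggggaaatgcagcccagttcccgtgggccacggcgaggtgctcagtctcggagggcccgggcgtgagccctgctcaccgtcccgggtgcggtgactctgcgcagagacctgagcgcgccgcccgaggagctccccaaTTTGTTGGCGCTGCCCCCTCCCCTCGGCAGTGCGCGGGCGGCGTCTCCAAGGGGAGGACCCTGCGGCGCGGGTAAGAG
The RefSeq start sites are 21 bases apart, so that the first bases of the genes overlap. GC content was 74.0% for *Col4a1* and 73.7% for *Col4a2*, against a median of 52.7% over all promoters of the RefSeq table and 60% over the collagen chains, of which 35 of 44 had an entry. Neither window holds TATAAA on either strand, a match found in 14.2% of all promoters. Each holds CCAAT once, counted on both strands, as 37.9% of all promoters do at least once. GGGCGG was found on either strand once in the *Col4a1* window and 3 times in the *Col4a2* window, and at least once in 22 of the 35 collagen promoters (62.9%) against 35.9% of all promoters, beside the higher GC content of the former.

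Across the stages the collagen chains were a small part of the RNA. Type XVIII led in ESC and type IV in HB, and HP held type IV, fibrillar chains and type XVIII. With values given in the order ESC, MES, HB, HP, MAC here and in what follows, the FPKM of all 44 chains summed to 83.8, 64.3, 124, 157 and 21.5. This was 0.0464%, 0.0352%, 0.0613%, 0.0846% and 0.00563% of all FPKM of the stage, so that HP had the highest share and MAC the lowest. Type IV chains made up 31.8%, 29.1%, 68.7%, 39.5% and 32.4% of collagen FPKM. Fibrillar chains made up 10.7%, 28.2%, 14.7%, 32.8% and 15.9%. Of the 44 chains, 19 reached 1 FPKM in at least 1 stage and 6 reached 10 FPKM, namely *Col1a1*, *Col1a2*, *Col5a1*, *Col4a1*, *Col4a2* and *Col18a1*. Of the 19, 8 were highest in HP, 6 in HB, 3 in ESC, 2 in MAC and 0 in MES, among these 5 stages and without HE.

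**Figure D1:**
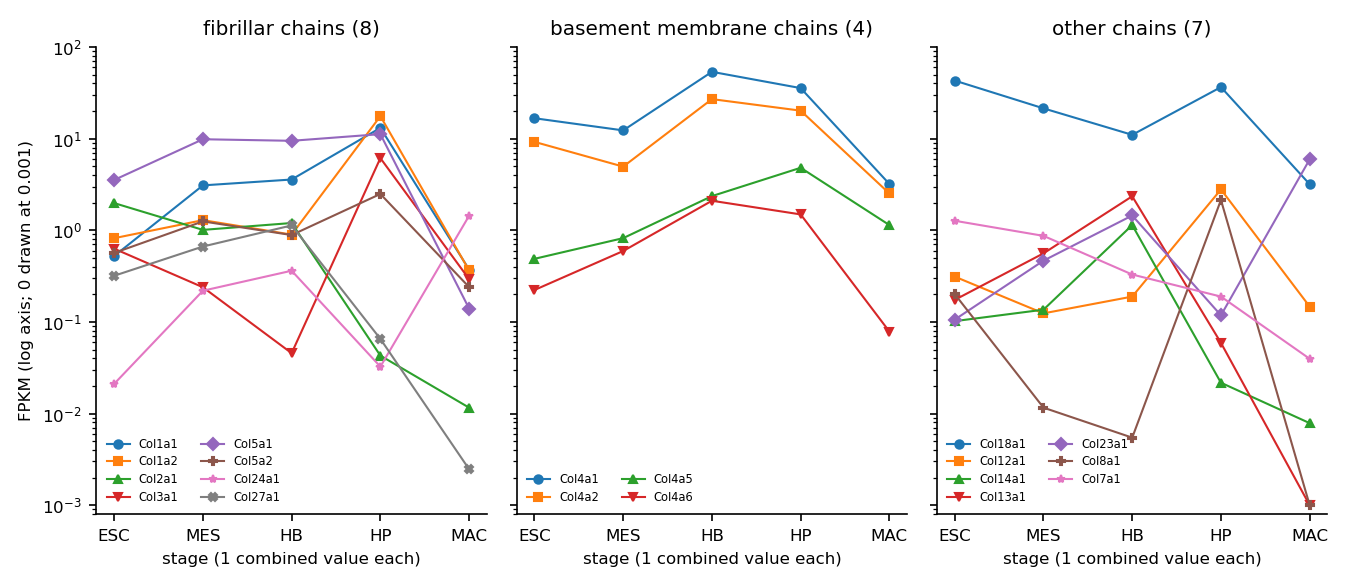
FPKM (log axis) by stage (x axis) of the 19 collagen chains with at least 1 FPKM in a stage, in panels for 8 fibrillar, 4 basement membrane and 7 other chains; each point is the 1 combined value of a stage, with no error, and values of 0 are drawn at 0.001. *Col4a1* and *Col4a2* peak in HB, *Col1a2* and *Col3a1* stand out in HP, and *Col23a1* and *Col24a1* are highest in MAC.

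Type I collagen, the main fiber of skin, tendon and bone, was low before HP. *Col1a1* had 0.524, 3.09, 3.58, 13.1 and 0.373 FPKM. *Col1a2*, which supplies the other chain of type I, had 0.82, 1.29, 0.897, 17.6 and 0.365 FPKM. Both were thus highest in HP, where *Col1a1* was 3.65-fold and *Col1a2* 19.6-fold above HB, and both were under 1 FPKM in MAC. *Col3a1*, the chain of type III, which accompanies type I in extensible tissues, had 0.63, 0.239, 0.0456, 6.13 and 0.293 FPKM and showed the same single high value in HP.

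Type V regulates the diameter of type I fibers. *Col5a1* differed from the type I chains in that it was already high in MES, with 3.54, 9.85, 9.47, 11.2 and 0.14 FPKM. Its partner *Col5a2* was lower, with 0.566, 1.25, 0.887, 2.49 and 0.24 FPKM, and *Col5a3* had at most 0.0699 FPKM. From ESC to HP, *Col5a1* thus stood 4.5- to 10.7-fold above *Col5a2*. *Col2a1*, the cartilage collagen, was highest in ESC (1.98 FPKM) and was at 1.2 FPKM in HB and 0.0429 in HP. *Col27a1*, a minor fibrillar chain, peaked in HB at 1.13 FPKM, and *Col24a1*, another, peaked in MAC at 1.44 FPKM after 0.0325 in HP. *Col11a1* and *Col11a2*, the type XI chains of cartilage, had at most 0.658 and 0.48 FPKM.

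Type IV was the most abundant collagen class in HB. *Col4a1* had 16.7, 12.3, 53.6, 35.6 and 3.2 FPKM. *Col4a2* had 9.22, 4.95, 27.0, 20.2 and 2.52 FPKM. The pair kept the same order of stages, 4.34-fold and 5.45-fold above MES in HB, and *Col4a1* was 1.27- to 2.49-fold above *Col4a2* in every stage. *Col4a5*, found with α3 and α4 in kidney and with α6 in other basement membranes, had 0.488, 0.821, 2.36, 4.81 and 1.14 FPKM and was highest in HP. *Col4a6*, its head-to-head neighbor, had 0.223, 0.594, 2.1, 1.49 and 0.0785 FPKM and was highest in HB. *Col4a3* and *Col4a4*, the kidney-type chains, had at most 0.017 and 0.0192 FPKM. In HB the 6 type IV chains thus formed 3 levels, each held by 1 head-to-head pair.

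Among the other types, *Col18a1*, a basement membrane proteoglycan and the source of endostatin, was the most abundant collagen of ESC, MES and HP. It had 43.0, 21.4, 11.0, 36.5 and 3.18 FPKM, the lowest level before MAC falling in HB, where *Col4a1* was highest. Of the 2 TSSs of *Col18a1* in the deposited table, one carried 42.5 of the 43.0 FPKM in ESC and 36.1 in HP, and the other never exceeded 1.1 FPKM. *Col12a1*, a FACIT chain of dense connective tissue, had 0.312, 0.124, 0.189, 2.79 and 0.147 FPKM. *Col8a1*, a short-chain collagen of vessel walls, had 0.201, 0.0116, 0.00546, 2.14 and 0 FPKM. Both therefore had their high value in HP with the type I and type III chains.

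The transmembrane collagens and *Col14a1* had the opposite profile around HP. *Col13a1*, a transmembrane collagen of cell adhesion sites, had 0.174, 0.56, 2.35, 0.0591 and 0 FPKM. *Col14a1*, a FACIT chain, had 0.102, 0.136, 1.14, 0.0217 and 0.00786 FPKM. Both had 1 high value, in HB. *Col23a1*, another transmembrane collagen, had 0.106, 0.466, 1.45, 0.118 and 5.94 FPKM, with a local peak in HB and its highest level in MAC, where it was the most abundant collagen. *Col7a1*, the anchoring fibril collagen of skin, had 1.27, 0.869, 0.329, 0.189 and 0.0396 FPKM.

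The remaining chains stayed under 1 FPKM in all 5 stages. The type VI chains, which form beaded filaments around cells, had at most 0.571 FPKM for *Col6a1*, 0.456 for *Col6a2*, 0.234 for *Col6a3*, 0.186 for *Col6a4*, 0.193 for *Col6a5* and 0.154 for *Col6a6*. The type IX chains of cartilage reached 0.177 FPKM for *Col9a1*, 0.671 for *Col9a2* and 0.995 for *Col9a3*. *Col15a1*, the multiplexin related to *Col18a1*, reached 0.388 FPKM, in MAC. Of the FACIT chains, *Col16a1* reached 0.243, *Col19a1* 0.181, *Col20a1* 0.723 and *Col22a1* 0.31 FPKM. The other transmembrane chains *Col17a1* and *Col25a1* reached 0.0693 and 0.183 FPKM. *Col8a2* reached 0.614, *Col26a1* 0.705 and *Col28a1* 0.00616 FPKM, and *Col10a1* was listed at 0 in every stage.

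HE, the stage that the study places between HB and HP, was not analysed here, so that HB to HP spans more than a single step. Changes between the stages at hand were counted where the values differed at least 2-fold, with 0.001 added to both, and at least 1 of them was 1 FPKM or more. From ESC to MES, 9 of the 44 chains could be counted, the others being below 1 FPKM in both stages. Of these 9, 3 were higher (*Col1a1*, *Col5a1*, *Col5a2*) and 1 was lower (*Col18a1*), against 11.3% and 12.0% of all genes that could be counted. From MES to HB, 7 were higher, all 4 type IV chains above 1 FPKM with *Col13a1*, *Col14a1* and *Col23a1*, and 0 lower, against 4.05% and 6.3% of all genes. The chains that could be counted here were 14, because the others were below 1 FPKM in both stages. Among these 14 the median difference in log2(FPKM + 1) was 0.55, against 0.13 over all genes. With all stages scaled to the same upper quartile it was 0.5 against -0.01.

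From HB to HP, 17 of the 44 chains could be counted, of which 8 were higher and 5 lower, against 12.3% and 12.8% of all genes. The 8 were *Col1a1*, *Col1a2*, *Col3a1*, *Col5a2*, *Col4a5*, *Col8a1*, *Col12a1* and *Col18a1*, and the 5 were *Col2a1*, *Col27a1*, *Col13a1*, *Col14a1* and *Col23a1*. From HP to MAC, 14 could be counted, of which 12 were lower, among them all 4 type IV chains above 1 FPKM and the 5 type I, III and V chains above 1 FPKM, against 16.9% of all genes. *Col23a1* and *Col24a1* were higher, against 38.0% of all genes. The median difference of the 14 chains counted was -2.09 in log2(FPKM + 1). The median over all genes was 0.45 as deposited and -0.18 after scaling to the same upper quartile, against which the chains had a median of -2.31.

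Markers of other cells were read beside these values. *Postn*, made by matrix-producing mesenchymal cells, had 1.5, 0.0996, 0.0299, 23.3 and 1.72 FPKM, and *Acta2*, the smooth muscle actin, had 14.3, 1.37, 0.705, 87.3 and 1.22 FPKM. Both had a high value in HP with *Col1a1*, *Col1a2* and *Col3a1*, and their part in the HP values was not tested. Of the fibroblast list, which holds *Postn*, 2 of the 7 counted were at least 2-fold higher in HP than in HB and 5 lower. Of the 3 smooth muscle markers counted, 1 was higher and 1 lower. Among all genes counted, 12.3% were higher and 12.8% lower. Endothelial markers were also at least 2-fold higher in HP than in HB for 3 of the 4 counted, among them *Cdh5* going from 1.7 to 10.8 FPKM and *Pecam1* from 1.51 to 25.7, while *Kdr* went from 77.6 to 21.4. *Col18a1* and *Col4a5* were higher in HP with these markers, whose part was not tested. The fibroblast markers *Prrx1*, *Lum* and *Dcn* were at 0.05, 0.242 and 0.366 FPKM in HP, against 0.0495, 0.00972 and 0.0054 in HB. In ESC, which had been grown on fibroblast feeders, these 3 were at 0.0344, 0.136 and 0.165 FPKM. The list of 12 fibroblast markers, of which 11 were analysed in the stages, had 4 genes at 1 FPKM or more in HP and 7 in ESC. Its sum was 79.4, 95.6, 293, 104 and 162 FPKM over the stages. In HB, where *Col4a1* was highest, *Kdr*, which encodes the FLK1 used to sort these cells, had 77.6 FPKM. The 8 endoderm markers, genes of a tissue that lays down much type IV collagen, summed to 7.38, 9.73, 40.3, 9.59 and 78.4 FPKM, the last mostly *Dab2* at 76.7. From MES to HB only 4 of these 8 could be counted, namely *Gata4*, *Gata6*, *Sox7* and *Lama1*. All 4 were at least 2-fold higher, against 4.05% of all genes, *Gata4* going from 4.34 to 24.4 and *Gata6* from 2.53 to 9.03 FPKM. The others were under 1 FPKM in both stages. Of these, *Foxa2* went from 0.686 to 0.194 FPKM, *Sox17* from 0.49 to 0.65, *Dab2* from 0.429 to 0.663 and *Afp* from 0 to 0.00912. The part of these markers in the HB values was not tested. The markers of each stage followed its label, with pluripotency genes summing to 638 FPKM in ESC, mesoderm genes to 277 in MES, blood genes to 207 in HP against 10.5 in HB, and macrophage genes to 1263 in MAC.

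In the fibroblasts, collagen chains were among the most abundant RNAs, and they were lower in SL and SFGL at both days but not in the libraries labelled FGL. The 44 chains made up 2.36% of all FPKM in uFIB at day 12 and 2.06% at day 21. The share was 0.7% and 0.561% in SL, 0.539% and 0.371% in SFGL, and 2.15% and 2.01% in FGL. The SL and SFGL libraries were thus all below both uFIB libraries, and uFIB held 3.38-fold (day 12) and 3.67-fold (day 21) the share of SL and 4.39-fold and 5.55-fold that of SFGL. *Col1a1* ranked 3 of 20495 genes in uFIB at day 12, 79 in SL and 108 in SFGL at that day.

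**Figure D2:**
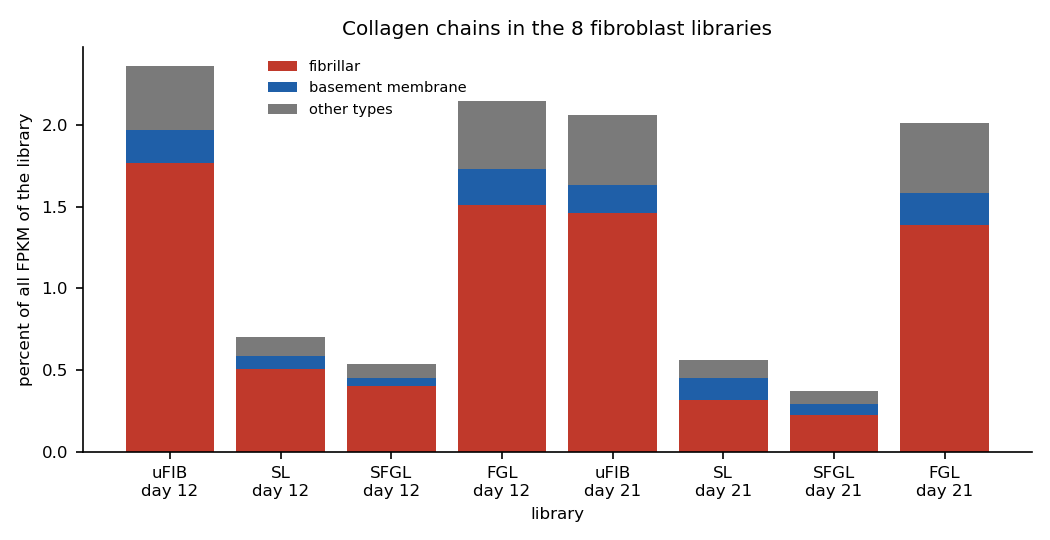
Percent of all FPKM of each of the 8 fibroblast libraries taken by the collagen chains, stacked as fibrillar, basement membrane and other types; each bar is 1 library, with no error. The uFIB and FGL bars reach 2.01% to 2.36% and the SL and SFGL bars 0.371% to 0.7%, and the basement membrane part in SL at day 21 is 76.7% of that in uFIB.

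The classes stood at different distances from uFIB. At day 21 the fibrillar share in SL was 21.5% of that in uFIB and the share of other types 26.5%, but the basement membrane share was 76.7%. At day 12 the same values were 28.7%, 29.7% and 37.3%. In SFGL the basement membrane share was 26.0% of uFIB at day 12 and 38.3% at day 21, against 22.7% and 15.5% for fibrillar chains. Type IV made up 8.42% (day 12) and 8.56% (day 21) of collagen FPKM in uFIB, and 24.1% in SL and 18.2% in SFGL at day 21. These are values of single libraries, and the difference between classes was not tested.

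Treatments were compared with uFIB by limma on log2(FPKM + 1), with the days as a term and as the 2 libraries of each treatment, over the 11991 genes whose mean was 1 FPKM or more, and adjusted p-values (Benjamini-Hochberg) under 0.05 over all genes were called. Of the 44 chains, 32 could be tested, and the filter keeps chains that are high in uFIB. In SL, 25 chains fell and 1 rose (*Col23a1*), against 27.1% and 25.4% of all genes tested. In SFGL, 28 fell and 2 rose (*Col11a2* and *Col20a1*), against 30.8% and 28.0% of all genes. The median difference of the 32 chains was -1.59 in SL and -1.92 in SFGL, against -0.03 over all genes in both comparisons, which share the uFIB libraries. By class, 10 fibrillar, 3 type IV and 19 other chains were tested. Of these, 9, 2 and 14 fell in SL, and 9, 2 and 17 in SFGL.

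The counts depended on single libraries. Fewer chains fell in SL when a uFIB, SL or SFGL library was left out, and fewer in SFGL when any library was left out. The share of all genes that fell was smaller in these fits too, each of which left 1 library in a group. Of the 26 chains called in SL, 11 were called in each of 12 alternative settings, namely *Col1a1*, *Col1a2*, *Col5a1*, *Col5a2*, *Col11a1*, *Col27a1*, *Col6a5*, *Col6a6*, *Col14a1*, *Col16a1* and *Col8a1*, and of the 30 called in SFGL, 17 were. All 26 and all 30 kept their sign in the 12 settings. For a 2-fold rule, at least 1 FPKM in 1 of the 2 libraries compared was needed on each day, as 32 chains had. Of these 32, 21 were at least 2-fold lower on both days in SL and 27 in SFGL. The shares of all genes that could be counted were 12.1% and 16.3%. By the same rule 0 chains were higher in SL or in SFGL, against 12.3% and 13.4% of all genes. Over all 44 chains, including those near 0, both SL libraries lay below both uFIB libraries for 34 and above for 6. Both SFGL libraries lay below for 36 and above for 4. The same was not counted over all genes, so these numbers do not set the chains apart.

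**Figure D3:**
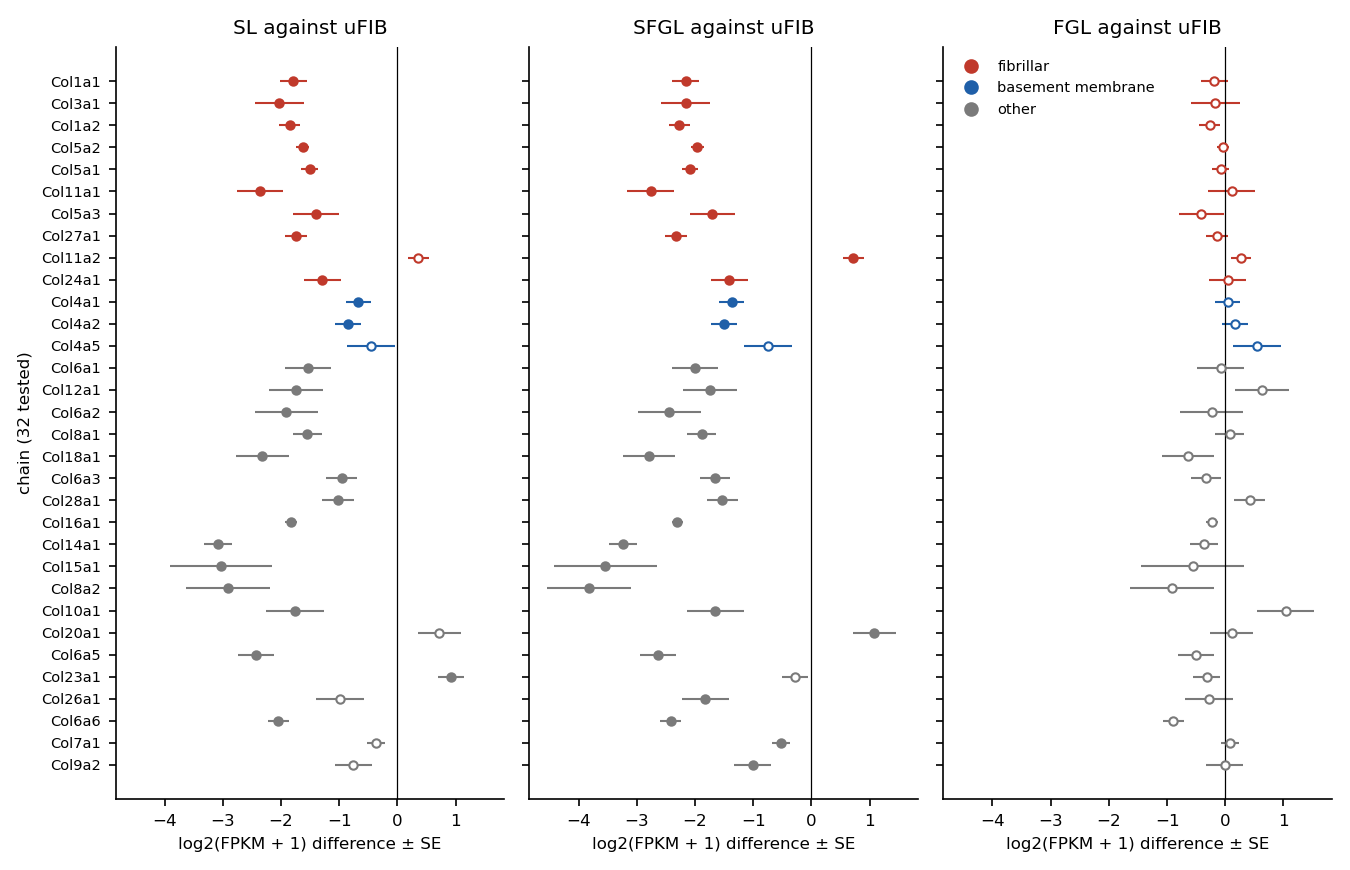
Difference in log2(FPKM + 1) from uFIB (x axis, limma estimate ± SE) for the 32 tested collagen chains (y axis) in SL, SFGL and FGL, colored by class; filled points passed an adjusted p of 0.05 and open points did not. In SL 25 chains and in SFGL 28 are filled to the left of 0, and in FGL all 32 points are open.

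The type I and III chains had the highest levels. *Col1a1* had 2409 and 1609 FPKM in uFIB at day 12 and day 21, 784 and 412 in SL, 680 and 285 in SFGL, and 1944 and 1542 in FGL. The difference from uFIB was -1.79 ± 0.23 (SE) in SL (limma, adjusted p = 0.0027) and -2.16 ± 0.23 in SFGL (adjusted p = 0.0012). *Col1a2* had 1711 and 1124 FPKM in uFIB, 533 and 275 in SL, 427 and 193 in SFGL, and 1364 and 974 in FGL. Its differences, -1.85 ± 0.18 and -2.27 ± 0.18 (limma, adjusted p = 0.0014 and 0.00067), were close to those of *Col1a1*. *Col3a1* had 1877 and 2045 FPKM in uFIB, 733 and 312 in SL, 564 and 340 in SFGL, and 1480 and 2058 in FGL. For all 3 genes every SL and SFGL library was below both uFIB and both FGL libraries. *Col3a1* differed by -2.03 ± 0.42 in SL (limma, adjusted p = 0.011), and was 2.56-fold below uFIB at day 12 and 6.55-fold at day 21. Its call in SL was lost without uFIB or SL at day 21 (adjusted p = 0.067 and 0.055), and that in SFGL without SFGL at day 21 (0.058).

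All 3 type V chains fell in both treatments. *Col5a1* had 328 and 274 FPKM in uFIB, 120 and 91.2 in SL, 88.2 and 55.0 in SFGL, and 303 and 264 in FGL, a difference of -1.51 ± 0.14 in SL (limma, adjusted p = 0.0013). *Col5a2* had 471 and 295 FPKM in uFIB, 143 and 101 in SL, 127 and 71.2 in SFGL, and 452 and 293 in FGL, a difference of -1.63 ± 0.11 (adjusted p = 0.0011). *Col5a3*, which stood far lower, had 19.7 and 22.0 FPKM in uFIB, 12.1 and 4.22 in SL, 7.68 and 4.19 in SFGL, and 14.4 and 16.5 in FGL. Its difference in SL was -1.40 ± 0.39 (limma, adjusted p = 0.031), with an error wider than those of its partners, and the call in SL was lost without uFIB or SL at day 21 (limma, adjusted p = 0.16 and 0.14) or either SFGL library (0.052), and in SFGL without uFIB or SFGL at day 21 (0.085 and 0.091). *Col11a1*, whose chain also joins type V molecules, had 53.6 and 49.9 FPKM in uFIB, 12.4 and 6.87 in SL, 12.0 and 3.62 in SFGL, and 51.8 and 60.1 in FGL. This was the largest fall among fibrillar chains in SL (-2.36 ± 0.40, limma, adjusted p = 0.0063) and in SFGL (-2.76 ± 0.40, adjusted p = 0.003). With 0.1 instead of 1 added to the FPKM, *Col27a1* fell further in SFGL (-3.03) than *Col11a1* (-2.95).

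The other fibrillar chains were low. *Col27a1* had 8.83 and 9.95 FPKM in uFIB, 2.17 and 2.05 in SL, 1.02 and 1.11 in SFGL, and 6.55 and 10.7 in FGL, a difference of -1.74 ± 0.19 in SL (limma, adjusted p = 0.0017). *Col24a1* also fell in both and ranged from 0.464 to 5.21 FPKM over the 8 libraries; its calls were lost without uFIB, SL or SFGL of day 12 or SL of day 21 (limma, adjusted p = 0.064 to 0.11). *Col11a2* went the other way, with 1.53 and 1.72 FPKM in uFIB, 2.15 and 2.61 in SL, 3.92 and 2.8 in SFGL, and 2.01 and 2.34 in FGL. Its difference was 0.36 ± 0.18 in SL, not called (limma, adjusted p = 0.15), and it rose by 0.72 ± 0.18 in SFGL (adjusted p = 0.019), a call lost without either uFIB library or SFGL at day 12 (0.065 to 0.097). *Col2a1* was not tested and had 0.0991 to 0.787 FPKM.

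In SL the type IV chains differed less from uFIB than the type I chains did. *Col4a1* had 380 and 336 FPKM in uFIB, 182 and 276 in SL, 128 and 148 in SFGL, and 388 and 346 in FGL. *Col4a2* had 376 and 308 FPKM in uFIB, 153 and 231 in SL, 112 and 128 in SFGL, and 401 and 368 in FGL. All SL and SFGL libraries were below both uFIB libraries, but SL at day 21 was only 1.22-fold lower for *Col4a1* and 1.33-fold lower for *Col4a2*. The difference in SL was -0.67 ± 0.21 for *Col4a1* (limma, adjusted p = 0.043) and -0.85 ± 0.22 for *Col4a2* (adjusted p = 0.024), and the *Col4a1* call was lost in 7 of the 12 alternative settings, among them the fits without either uFIB library, SL at day 12 or either SFGL library (0.061 to 0.22). The *Col4a2* call was lost without uFIB or SL at day 12 (0.14 and 0.11). In SFGL the differences were -1.37 ± 0.21 and -1.50 ± 0.22 (limma, adjusted p = 0.0035 and 0.003), called in each of the 12. *Col4a5* had 16.1 and 10.1 FPKM in uFIB, 6.69 and 12.2 in SL, 5.63 and 9.33 in SFGL, and 23.7 and 15.4 in FGL. SL overlapped uFIB for this gene, and neither SL (-0.45 ± 0.41, limma, adjusted p = 0.39) nor SFGL (-0.74 ± 0.41, adjusted p = 0.17) passed the test. The remaining type IV chains were not tested: *Col4a6* ranged from 0.206 to 1.11 FPKM, *Col4a3* from 0.00907 to 0.15 and *Col4a4* from 0 to 0.118.

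**Figure D4:**
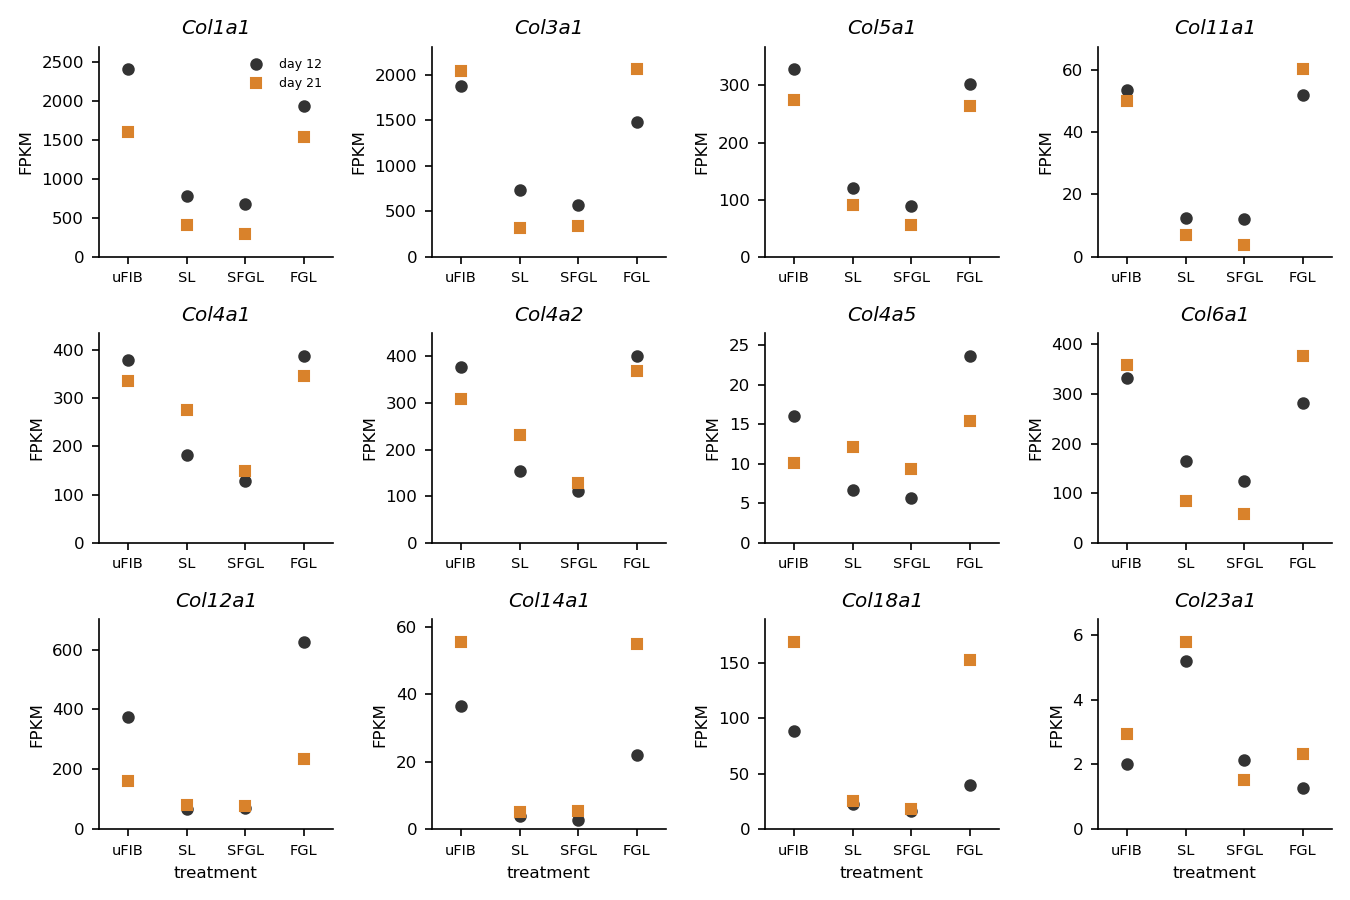
FPKM (y axis, linear from 0) of 12 collagen chains in each fibroblast library by treatment (x axis), at day 12 (circles) and day 21 (squares); each point is 1 library. For *Col1a1* both SL points (784 and 412) lie below both uFIB points (2409 and 1609), for *Col4a5* SL and uFIB overlap, and for *Col23a1* both SL points (5.19 and 5.79) lie above both uFIB points (2.01 and 2.93).

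In SL and in SFGL, 5 of the 6 type VI chains fell. *Col6a1* had 332 and 358 FPKM in uFIB, 164 and 85.0 in SL, 125 and 57.7 in SFGL, and 282 and 377 in FGL. *Col6a2* had 226 and 282 FPKM in uFIB, 104 and 42.6 in SL, 70.6 and 29.5 in SFGL, and 171 and 269 in FGL. *Col6a3* had 91.9 and 106 FPKM in uFIB, 61.7 and 41.1 in SL, 39.6 and 23.6 in SFGL, and 75.7 and 80.7 in FGL. Each was lower in all SL and SFGL libraries, with the day 21 library below that of day 12 in both treatments. The differences in SL were -1.54 ± 0.40, -1.91 ± 0.54 and -0.96 ± 0.26 (limma, adjusted p = 0.025, 0.03 and 0.027), and each of the 3 calls was lost without uFIB or SL at day 21 (0.13 to 0.17). In addition *Col6a1* was lost without uFIB or SL at day 12 (0.055 and 0.051), *Col6a2* without uFIB (0.057) and *Col6a3* without SL (0.059) of that day. In SFGL, *Col6a1* and *Col6a2* were lost without uFIB or SFGL at day 21 (limma, adjusted p = 0.056 to 0.079). *Col6a5* and *Col6a6*, chains that can take the place of α3, were at 7.88 and 6.9 and at 5.44 and 5.95 FPKM in uFIB, against 1.15 and 0.119 and 0.89 and 0.391 in SL. Their differences in SL were -2.43 ± 0.31 and -2.05 ± 0.18 (limma, adjusted p = 0.0026 and 0.0012) and were called in each of the 12 settings. *Col6a4* was not tested and had at most 0.158 FPKM.

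Both multiplexins fell in SL and SFGL. *Col18a1* had 88.4 FPKM in uFIB at day 12 and 169 at day 21, 22.3 and 25.1 in SL, 16.1 and 17.7 in SFGL, and 39.8 and 153 in FGL. *Col15a1* had 16.1 and 70.1 FPKM in uFIB, 4.95 and 2.07 in SL, 2.27 and 1.76 in SFGL, and 9.29 and 53.8 in FGL. In uFIB and FGL both had the higher value at day 21, a difference between single libraries that was not tested. Every SL and SFGL library was below both uFIB libraries. The difference in SL was -2.32 ± 0.45 for *Col18a1* (limma, adjusted p = 0.009) and -3.03 ± 0.88 for *Col15a1* (adjusted p = 0.033). Without uFIB or SL at day 21 both calls in SL were lost, at 0.051 and 0.06 for *Col18a1* and 0.17 for *Col15a1*, which was also lost without uFIB at day 12 (0.055) and, in SFGL, without uFIB or SFGL at day 21 (0.1 and 0.11).

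Of the FACIT chains, *Col14a1*, made by many mesenchymal cells and bound to fibers of type I, had 36.5 and 55.6 FPKM in uFIB, 4.02 and 4.96 in SL, 2.81 and 5.24 in SFGL, and 22.1 and 55.1 in FGL. Its difference in SL was -3.08 ± 0.24 (limma, adjusted p = 0.0011), the largest fall of the 32 chains in that comparison with 1 added to the FPKM. With 0.1 added instead, *Col6a5* (-3.84) and *Col15a1* (-3.35) fell further in SL than *Col14a1* (-3.31). *Col12a1* had 375 and 162 FPKM in uFIB, 66.8 and 80.0 in SL, 70.1 and 76.5 in SFGL, and 626 and 234 in FGL. *Col16a1* had 58.0 and 46.3 FPKM in uFIB, 15.5 and 12.4 in SL, 11.2 and 8.51 in SFGL, and 45.6 and 42.5 in FGL, and with -1.83 ± 0.10 in SL had the smallest error of the chains (limma, adjusted p = 0.0011). *Col12a1* differed from the others in being highest in FGL at day 12, and its difference in SL was -1.74 ± 0.46 (limma, adjusted p = 0.026), a call lost without uFIB or SL at day 12 (0.15), as it was in SFGL without uFIB or SFGL at day 12 (0.13 and 0.14). *Col20a1* had 1.74 and 2.27 FPKM in uFIB, 4.3 and 3.56 in SL, 8.89 and 3.04 in SFGL and 2.34 and 2.12 in FGL. Its rise in SFGL (1.08 ± 0.37, limma, adjusted p = 0.049) was lost in 8 of the 12 alternative settings, without uFIB or SFGL at day 12 or either SL or FGL library among them (0.07 to 0.25). In SL it did not pass (0.72 ± 0.37, limma, adjusted p = 0.15), but did without either SFGL library (0.028 and 0.027). *Col9a2*, with 0.222 to 2.49 FPKM, was called in SFGL (limma, adjusted p = 0.041) and not in SL (0.099), and the difference between the treatments was not called (-0.25 ± 0.32). The SFGL call was lost without any 1 of the uFIB, SL or SFGL libraries (0.051 to 0.19), and SL passed without either FGL library (0.023 and 0.024). Those not tested were *Col9a1* (0 to 0.353 FPKM), *Col9a3* (0.264 to 0.607), *Col19a1* (0.0272 to 0.171) and *Col22a1* (0.00921 to 0.121).

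*Col23a1* was the only 1 of the 32 tested chains that rose in SL. It had 2.01 and 2.93 FPKM in uFIB, 5.19 and 5.79 in SL, 2.15 and 1.53 in SFGL, and 1.28 and 2.31 in FGL. The rise was 0.92 ± 0.23 (limma, adjusted p = 0.02), a call lost without any 1 of the uFIB or SL libraries (0.055 to 0.11), and SFGL differed from uFIB by -0.28 ± 0.23 (adjusted p = 0.32). Compared directly, SFGL was 1.20 ± 0.23 below SL, which did not pass over all genes (limma, adjusted p = 0.38, unadjusted p = 0.0024). The other transmembrane chains were not tested, with at most 0.0667 FPKM for *Col13a1*, 0.104 for *Col17a1* and 0.233 for *Col25a1*.

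The short-chain collagens fell. *Col8a1* had 182 and 181 FPKM in uFIB, 46.9 and 79.4 in SL, 35.4 and 66.8 in SFGL, and 181 and 202 in FGL, a difference of -1.55 ± 0.25 in SL (limma, adjusted p = 0.0048). *Col8a2*, its partner, had 24.0 and 36.9 FPKM in uFIB, 5.78 and 1.48 in SL, 2.74 and 0.273 in SFGL, and 10.1 and 22.9 in FGL. The difference was -2.91 ± 0.72 in SL (limma, adjusted p = 0.021), lost without uFIB or SL at day 21 (0.12), and -3.82 ± 0.72 in SFGL (adjusted p = 0.0071), the largest fall of the 32 chains in SFGL. *Col10a1*, the collagen of hypertrophic cartilage, had 9.14 and 1.19 FPKM in uFIB, 0.597 and 0.215 in SL, 0.624 and 0.385 in SFGL, and 12.8 and 5.85 in FGL. It fell in both treatments, with the calls lost without uFIB, SL, SFGL or FGL of day 12 or SL or FGL of day 21 in 1 or both treatments (limma, adjusted p = 0.052 to 0.18). Its values are uncertain, because the deposited locus on chromosome 10 runs from 34303612 to 34418528, whereas GENCODE M21 places the gene at 34389981 to 34397085.

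*Col28a1*, described in peripheral nerve, was at 63.4 and 66.8 FPKM in uFIB, 24.1 and 41.3 in SL, 15.4 and 31.0 in SFGL, and 88.7 and 86.5 in FGL. The difference was -1.02 ± 0.27 in SL (limma, adjusted p = 0.026), lost without uFIB at day 12 or either SL library (0.059 to 0.15), and -1.53 ± 0.27 in SFGL (adjusted p = 0.0057). *Col7a1* (0.884 to 2.15 FPKM) and *Col26a1* (0.462 to 7.54 FPKM) fell in SFGL (limma, adjusted p = 0.038 and 0.013) and did not pass in SL (0.11 and 0.096). The *Col7a1* call was lost without any 1 of the libraries other than SFGL at day 12 (0.06 to 0.2) and the *Col26a1* call without uFIB or SFGL at day 21 (0.082 and 0.087).

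In the libraries labelled FGL, 0 of the 44 chains were called in either direction by limma, against 0.0% of all genes lower and 0.0167% higher. At an unadjusted p under 0.05, 1 chain (*Col6a6*, lower) was among 286 genes lower and 180 higher. By the 2-fold rule on both days, 0 chains were higher or lower, against 0.105% and 0.123% of all genes. The median difference of the 32 chains was -0.11. Both FGL libraries lay below both uFIB libraries for 8 of the 44 chains and above for 7, and overlapped for 29. This was not counted over all genes either. Among the abundant chains, *Col12a1* was at 626 FPKM in FGL against 375 in uFIB at day 12 and at 234 against 162 at day 21, and *Col18a1* was at 39.8 against 88.4 and at 153 against 169.

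SFGL was also set directly against SL, in which *Fli1* and *Gata2* RNA was high as well. Here 0 of 44 chains were called in either direction by limma, as were 0.0% of all genes higher and 0.0% lower. At an unadjusted p under 0.05, 8 chains were lower in SFGL and 0 higher, among 657 genes lower and 400 higher. The 8 were *Col5a1*, *Col5a2*, *Col27a1*, *Col4a1*, *Col4a2*, *Col6a3*, *Col16a1* and *Col23a1*. The differences were -0.70 ± 0.21 for *Col4a1* and -0.65 ± 0.22 for *Col4a2* (limma, adjusted p = 0.49 and 0.53).

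Some partner chains kept close proportions in the fibroblasts and others did not. *Col1a1* was 1.41- to 1.59-fold *Col1a2* in all 8 libraries, although *Col1a1* itself ranged from 285 to 2409 FPKM. *Col4a1* was 0.941- to 1.19-fold *Col4a2* and *Col5a1* 0.669- to 0.926-fold *Col5a2*. *Col6a1* over *Col6a2* was wider, from 1.27 in uFIB to 2.0 in SL at day 21, and *Col6a2* over *Col6a3* ranged from 1.04 in SL to 3.33 in FGL, both at day 21. *Col8a1* over *Col8a2* ranged from 4.89 in uFIB at day 21 to 245 in SFGL at day 21, where *Col8a2* had only 0.273 FPKM. Among libraries with both chains at 1 FPKM or more, the highest ratio was 53.6, in SL at day 21. In addition, *Col4a5* was 15.5- to 32.5-fold its neighbor *Col4a6* in the fibroblasts, where *Col4a6* had only 0.206 to 1.11 FPKM. In HB and HP, where both passed 1 FPKM, *Col4a5* was 1.13- and 3.24-fold *Col4a6*. *Col4a1* was 0.158-fold *Col1a1* in uFIB at day 12, 0.209 in uFIB at day 21, 0.232 and 0.668 in SL, and 0.188 and 0.519 in SFGL. Across the stages, *Col4a1* was above *Col1a1* throughout, 15.0-fold in HB and 2.72-fold in HP.

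**Figure D5:**
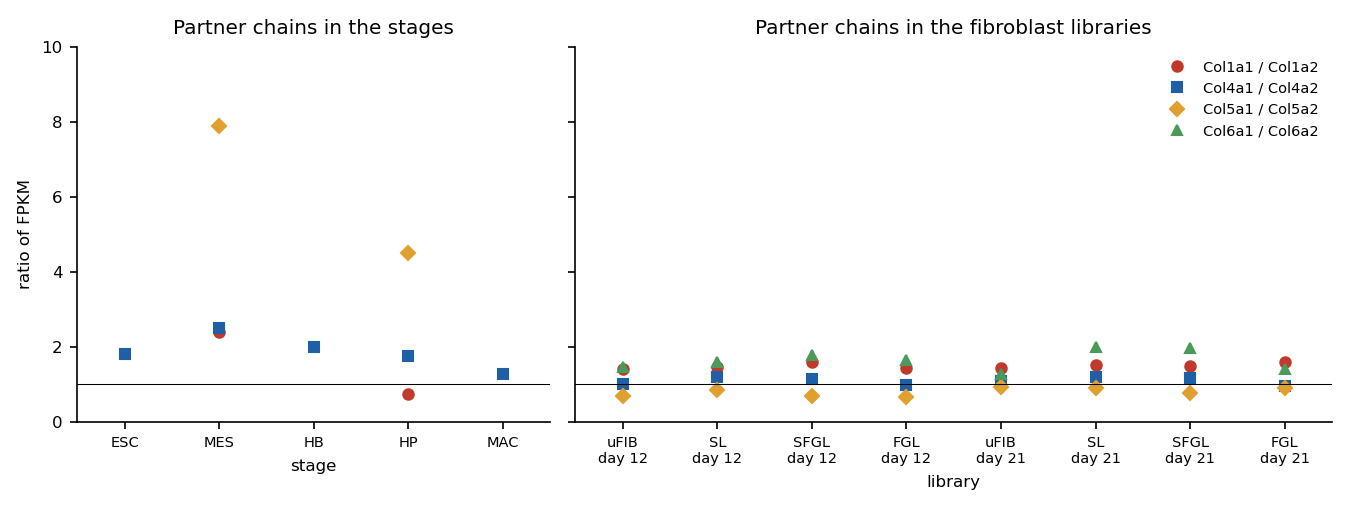
Ratio of FPKM of partner chains (y axis) in the stages (left, 1 combined value each) and in the 8 fibroblast libraries (right), shown where both chains had at least 1 FPKM. In the fibroblasts *Col1a1*/*Col1a2* stays between 1.41 and 1.59 and *Col4a1*/*Col4a2* between 0.941 and 1.19, and in the stages *Col4a1*/*Col4a2* lies between 1.27 and 2.49.

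Genes that make, bind and cut collagen were read in the same fits. Of 31 genes for biosynthesis and processing, 28 were tested, and 20 fell and 0 rose in SL as in SFGL, with 0 called in FGL, where the shares of all genes were 27.1% and 30.8% for falls and 25.4% and 28.0% for rises in SL and SFGL. *Serpinh1*, the collagen chaperone HSP47, had 977 and 812 FPKM in uFIB, 360 and 257 in SL, 300 and 185 in SFGL, and 886 and 795 in FGL, with a difference of -1.55 ± 0.15 in SL (limma, adjusted p = 0.0015). *Lox*, which cross-links fibers, had 1457 and 951 FPKM in uFIB and 415 and 372 in SL, a difference of -1.58 ± 0.19 (adjusted p = 0.0023). The largest falls of this list in SL were those of *Pcolce*, the enhancer of procollagen cleavage (-2.25 ± 0.24), *Adamts2*, a procollagen protease (-2.19 ± 0.27), and *Fkbp14*, a foldase (-1.65 ± 0.14). *P4hb*, a subunit of prolyl hydroxylase with wider roles in protein folding, had 363 and 339 FPKM in uFIB and 369 and 343 in SL and did not pass (0.02 ± 0.13, adjusted p = 0.9). In the stages, 21 of these genes could be counted from HP to MAC, of which 12 were at least 2-fold higher and 6 lower, against 38.0% and 16.9% of all genes.

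Of 10 collagen receptors, 8 were tested, and 4 fell and 2 rose in SL, and 6 fell and 2 rose in SFGL, where 25.4% (SL) and 28.0% (SFGL) of all genes rose and 27.1% and 30.8% fell. The 2 of 8 that rose were thus near the share of all genes. *Itgb1*, the shared β subunit, was the highest, with 402 and 305 FPKM in uFIB and 198 and 290 in SL, and was not called in SL (limma, adjusted p = 0.11). *Mrc2*, an uptake receptor for collagen, fell from 98.2 and 105 FPKM in uFIB to 35.1 and 37.2 in SL (-1.46 ± 0.23). *Itga11*, the collagen-binding integrin of fibroblasts, fell from 120 and 66.1 FPKM to 28.3 and 16.6 (-1.99 ± 0.11), and *Ddr2*, a receptor of mesenchymal cells, from 39.9 and 63.3 to 13.6 and 21.2 (-1.51 ± 0.15). The 2 receptors that rose are those of blood cells. *Lair1*, an inhibitory receptor of leukocytes, had 0.099 and 0.0513 FPKM in uFIB and 6.49 and 3.29 in SL (2.40 ± 0.23, limma, adjusted p = 0.0014). *Gp6*, the collagen receptor of platelets, was listed at 0 in both uFIB libraries and had 0.739 and 2.57 FPKM in SL (limma, adjusted p = 0.045).

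Of 7 proteases that cleave collagen, all tested, 4 fell and 2 rose in both treatments, the latter again near the 25.4% (SL) and 28.0% (SFGL) of all genes. *Mmp2* fell from 519 and 533 FPKM in uFIB to 173 and 139 in SL (-1.76 ± 0.18), and the membrane protease *Mmp14* from 495 and 334 to 161 and 98.9 (-1.68 ± 0.14). *Ctsk*, the cathepsin that cleaves bone collagen, fell from 69.1 and 70.2 to 17.1 and 7.05 FPKM (-2.55 ± 0.37). The 2 that rose are known from myeloid cells: *Mmp8*, the neutrophil collagenase, had 1.99 and 2.65 FPKM in uFIB and 153 and 71.3 in SL (4.99 ± 0.54, limma, adjusted p = 0.0017), and *Mmp9*, a gelatinase, had 0.186 and 0.65 FPKM in uFIB and 62.5 and 31.4 in SL (5.02 ± 0.49, adjusted p = 0.0014).

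Markers of cell types were set beside the collagen chains. The 12 fibroblast markers summed to 4183 and 3046 FPKM in uFIB and 4310 and 3436 in FGL. In SL they summed to 1295 and 2010, and in SFGL to 1073 and 1489. Of them, 9 fell in SL and 10 in SFGL, against 27.1% and 30.8% of all genes. All 12 were at 1 FPKM or more in each of the 8 libraries. The 7 blood markers summed to 29.2 and 45.8 FPKM in uFIB and 59.3 and 42.5 in FGL. In SL they summed to 313 and 265, and in SFGL to 380 and 351. All 7 rose in SL and in SFGL, against 25.4% and 28.0% of all genes. The 4 smooth muscle markers summed to 460 and 187 FPKM in uFIB and to 81.5 and 137 in SL. In SL 1 of the 4 fell, near the 27.1% of all genes. The 5 endothelial markers summed to 2.54 and 1.26 FPKM in uFIB and 15.6 and 11.4 in SL, where *Pecam1* alone had 10.5 and 6.65. Only 2 of the 5 could be tested, *Pecam1* and *Cdh5*, and both rose in SL, against 25.4% of all genes. *Kdr*, not tested, had 0.748 and 0.102 FPKM in uFIB and 0.173 and 0.154 in SL. The part of these markers in the collagen values was not tested.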

How the data were processed

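RNA-seq of 10 stage samples (2 replicates for each of 5 stages) and of 8 fibroblast libraries was used. The authors sequenced ribosome-depleted RNA, aligned it to mm10, kept unique reads without duplicates and computed expression with Cufflinks; the labels also name TopHat for the fibroblasts, with versions not given in the sources used here. All values are FPKM as deposited by the authors, 1 combined value per TSS and stage, and 1 value per gene and fibroblast library. The tables were normalized separately and were not compared by level. TSS values (22089 rows) were summed per gene. HE, 1 column of the stage table and a stage between HB and HP in the study, was not used. FPKM does not hold read numbers, so that no counting intervals are given. Relative depth was estimated from genes under 0.3 FPKM, of which 15.2% to 19.2% shared the smallest step.

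The fibroblast libraries were fitted with limma 3.58.1 (R 4.3.3) on log2(FPKM + 1), with treatment and day as terms and a trended variance, leaving 3 residual degrees of freedom. The days of a treatment stand as its replicates. The p-values are set against what treatment and day as additive terms leave over. This remainder may be technical, or a change with day that differs between treatments. The smaller a value, the more the added 1 understates its fold. The fit of SFGL against SL was added after seeing the data. The script was tested on simulated data.

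Chains with at least 10 FPKM in any column, and partner chains, are named with values, the others with a range; pathway lists give their counts, highest genes and largest changes. The members and lists were chosen with earlier results of these data known. Positions are those of the deposited tables, strands those of GENCODE M21 and promoters those of RefSeq (GRCm38.p6). Software was pandas 2.3.3, NumPy 2.4.6 and matplotlib 3.10.9 under Python 3.11.15.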

Additional observations from a re-analysis of the deposited data

How the results depend on the processing

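No paired analysis was possible because the replicates of a stage are combined in 1 column and each fibroblast group has 1 library, so that no replicate numbers pair samples; day is a term of the fit throughout. Between stages, a fold limit of 4 left 1 chain higher and 0 lower from ESC to MES, against 2.81% and 3.68% of all genes. It left 4 higher from MES to HB and 4 higher from HB to HP, against 1.32% and 6.34%. A pseudocount of 1 left 0 lower from ESC to MES and 3 higher from MES to HB, against 7.3% and 2.53% of all genes. Scaling to the same upper quartile gave 2 lower from MES to HB and 1 higher from HP to MAC, against 8.21% and 22.4%. In the fibroblasts, a limit of 4-fold on both days left 7 chains lower in SL and 11 in SFGL, against 3.18% and 6.08% of all genes. Without the filter on low values, 1 chain rose in SFGL, against 21.3% of all genes. When 1 library was left out, the chains that fell numbered 14 to 26 in SL and 20 to 26 in SFGL, and those that rose 0 to 2 in each. The rise of *Col23a1* in SL was lost without either uFIB or either SL library, and 0 chains rose in SFGL without uFIB or SFGL at day 12. Without both libraries labelled FGL, an alternative chosen after seeing the data, 26 chains fell in SL and in SFGL, and 1 rose in SFGL. The shares of all genes were 26.4% and 30.3% for these falls and 27.5% for the rise. Where a treatment was left with 1 library, limma assumes that it varies like the others. Stage values have no error, and chains under 1 FPKM were not resolved at this depth.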
